A study of Mus musculus with 4 samples.

Results

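The 4 connexin genes that make up most gap junctions of the mouse heart, Gja1, Gja4, Gja5 and Gjc1, were described by the state of the CCGG sites in and around them. Each gene span was extended by 2 kb on either side, and the sites listed in all 4 deposited files were kept: 14 for Gja1, 13 for Gja4, 18 for Gja5 and 19 for Gjc1. These 64 sites are part of the 996020 sites shared by the 4 files, and the 4 genes are part of 16883 autosomal protein-coding genes with at least 5 shared sites. The genes were selected on their HpaII, BGT and MspI signal in these samples, with the ratios already known, so their levels and differences are given as a description and without a test.

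The samples were DNA of left ventricle from C57BL/6 mice aged 8 weeks. In all 4 groups the mice had gone through an induced myocardial infarction 3 days earlier, so the non-infarcted tissue is ventricle of an operated heart and not of an untouched animal. The groups were non-infarcted and infarcted tissue of wild-type mice, and non-infarcted and infarcted tissue of Neil3-/- mice, which lack the DNA glycosylase Neil3 (below, Neil3-null). Each group had 1 sample, so no difference below has a replicate check, and the labels do not state how many animals were behind a sample.

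Connexins are membrane proteins that assemble into channels joining the cytoplasm of neighbouring cells. In the heart these channels pass the current that makes muscle cells contract together, and they let ions and small molecules move between cells of the vessel wall. Cx43, the product of Gja1, is the main connexin of working ventricular muscle. Cx40 (Gja5) is found in atrial muscle, in the fast conduction system and in arterial endothelium. Cx45 (Gjc1) is found in nodal and conduction tissue and in the early heart, and Cx37 (Gja4) in endothelium.

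The method, HMST-seq, reads short tags next to CCGG, the motif cut by the enzymes HpaII and MspI. HpaII cuts when the inner cytosine carries no modification, whereas MspI also cuts when it is methylated (5mC) or hydroxymethylated (5hmC). In a further library, called BGT in the files, the DNA was glucosylated before MspI, which protects 5hmC sites from the cut. HpaII/MspI, the signal of the first library as a percentage of the second, therefore goes up with unmodified CCGG, and BGT/MspI goes down with 5hmC. The signal carries no fixed scale between libraries: HpaII exceeded MspI at 49.5% to 49.8% of sites, so a ratio above 100% is common and a ratio is not a percentage of unmodified DNA. The median gene had HpaII/MspI of 114% and 119% in non-infarcted and infarcted wild-type tissue and 117% and 119% in the matching Neil3-null tissue.

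The promoters of 3 of the genes are shown because they place the measured CCGG sites against each gene start. Each window runs from 250 bases before the start to 50 bases after it, is taken from RefSeq for GRCm38.p6 (the mm10 assembly), and is written 5′ to 3′ on the gene's own strand. Capitals mark CCGG, the only motif searched; it reads the same on both strands. The windows are chr10:56377050-56377349 (plus strand) for Gja1, chr4:127313990-127314289 (minus strand) for Gja4 and chr3:97032152-97032451 (plus strand) for Gja5.
Gja1: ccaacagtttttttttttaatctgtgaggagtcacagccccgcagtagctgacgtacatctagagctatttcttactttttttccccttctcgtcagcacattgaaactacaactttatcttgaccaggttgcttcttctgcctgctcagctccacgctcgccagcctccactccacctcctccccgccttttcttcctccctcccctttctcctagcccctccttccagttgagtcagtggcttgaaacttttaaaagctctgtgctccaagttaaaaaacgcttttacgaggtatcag
Gja4: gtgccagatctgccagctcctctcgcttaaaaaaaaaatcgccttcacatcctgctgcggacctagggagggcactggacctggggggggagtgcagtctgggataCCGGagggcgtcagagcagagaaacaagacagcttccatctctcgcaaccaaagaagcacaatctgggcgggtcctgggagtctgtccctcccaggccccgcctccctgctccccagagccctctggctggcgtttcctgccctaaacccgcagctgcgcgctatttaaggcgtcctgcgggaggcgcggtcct
Gja5: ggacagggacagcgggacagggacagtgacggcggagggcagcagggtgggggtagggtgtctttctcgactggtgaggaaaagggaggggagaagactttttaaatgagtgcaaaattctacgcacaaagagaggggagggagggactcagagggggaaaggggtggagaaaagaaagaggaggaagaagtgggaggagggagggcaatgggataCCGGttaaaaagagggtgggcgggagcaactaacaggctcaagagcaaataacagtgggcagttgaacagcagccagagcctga

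The Gja1 window held no CCGG, and the Gja4 and Gja5 windows held 1 each. Of 31365 such windows on autosomes, 53.5% held at least 1 CCGG. CpG dinucleotides numbered 8 in the Gja1, 16 in the Gja4 and 7 in the Gja5 window, against a median of 7 over all windows. The GC share was 47.7%, 62.0% and 55.7% in the same order, with a median of 53.0%. The CCGG of Gja5, at -34 bases from the start, was measured in all 4 samples. The CCGG of Gja4, at -144 bases from its start, was not listed in any file; 37.0% of the 38663 CCGG in all windows were listed in at least 1. Deposited positions lie 1 base before the first C of the motif, and distances below are counted to that C.

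HpaII/MspI was highest at Gja1 in 3 of the 4 samples, and of the 4 genes Gja1 alone passed 20 percentage points between infarcted and non-infarcted tissue. Gja1 (Gene ID 14609, chr10:56377300-56390419) had HpaII/MspI of 185% and 140% in non-infarcted and infarcted wild-type tissue and 194% and 170% in the matching Neil3-null tissue. Both infarcted samples were below both non-infarcted samples. Gjc1 (Gene ID 14615, chr11:102799477-102819686) had 146%, 140%, 139% and 152% in the same order of samples. Gja4 (Gene ID 14612, chr4:127311420-127314039) had 126%, 142%, 133% and 131%. Gja5 (Gene ID 14613, chr3:97032402-97053634) had 123%, 112%, 126% and 123%. For these last 3 genes the infarcted and non-infarcted values overlapped. The share of all genes without such overlap is not given here, so nothing is read from the separation at Gja1.

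**Figure D1:**
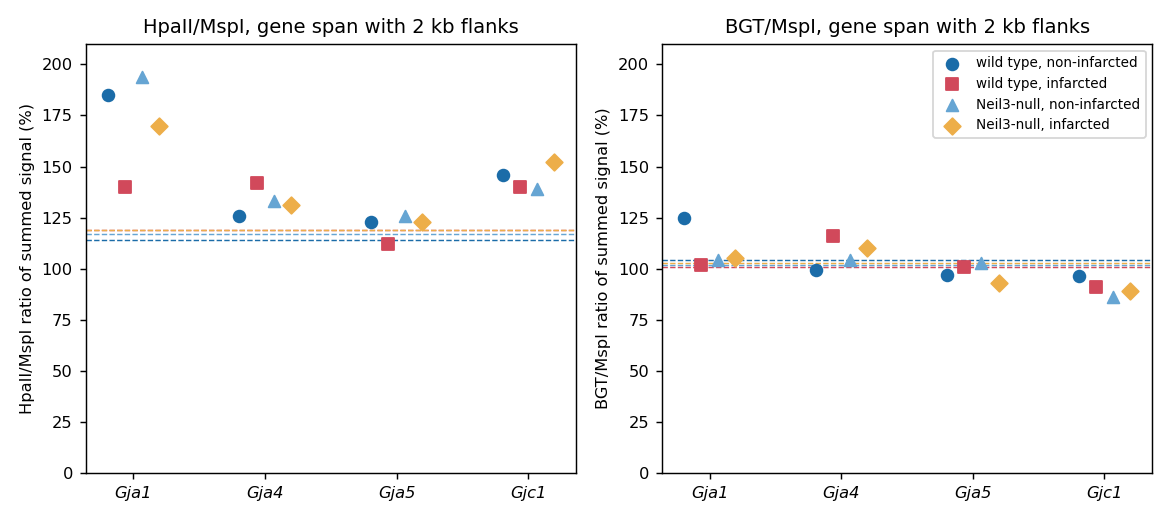
HpaII/MspI (left) and BGT/MspI (right) of the 4 genes in percent, 1 point per sample, with the median gene of each sample as a dashed line. Gja1 HpaII/MspI runs from 140% to 194%, and its BGT/MspI from 102% to 125%.

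Gja1 also held the widest spread of the 4 genes, and its place among all genes moved with it. Its HpaII/MspI stood, among all genes, at percentiles 88.5 and 67.0 in non-infarcted and infarcted wild-type tissue and 90.7 and 82.6 in the matching Neil3-null tissue. Gja5 lay between percentiles 43.1 and 58.7, Gja4 between 60.7 and 68.3 and Gjc1 between 67.1 and 74.5. By sample the order of the levels was Gja1, Gjc1, Gja4, Gja5 in 3 of the 4 samples; in wild-type infarcted tissue Gja1, Gjc1 and Gja4 were within 3 percentage points of each other. With no replicates, differences of that size cannot be ordered.

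In wild-type mice Gja1 HpaII/MspI was lower in infarcted than in non-infarcted tissue, with a difference of -44.5 percentage points, while the median gene was 4.84 points higher. Relative to the median gene the Gja1 difference was -49.3 points, at percentile 0.503 of genes. In this comparison 3.28% of genes were lower by at least 20 points and 12.1% higher; of the 4 connexins 1 was lower and 0 were higher. Gja4 was 15.9 points higher, and Gja5 and Gjc1 differed by -10.9 and -5.95 points.

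In Neil3-null mice Gja1 was lower as well, with a difference of -23.6 points at percentile 1.93, and the median gene was 2.09 points higher. Here 2.82% of genes were lower by at least 20 points and 6.82% higher, and again 1 connexin, Gja1, was lower and 0 were higher. Gjc1 differed by 13.2, Gja4 by -1.81 and Gja5 by -2.84 points. Both comparisons together placed 84 of 16883 genes (0.498%) at least 20 points lower in infarcted tissue of both genotypes, 1 of them Gja1. The rule that chose the genes used these contrasts, so nothing is read from those shares.

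**Figure D2:**
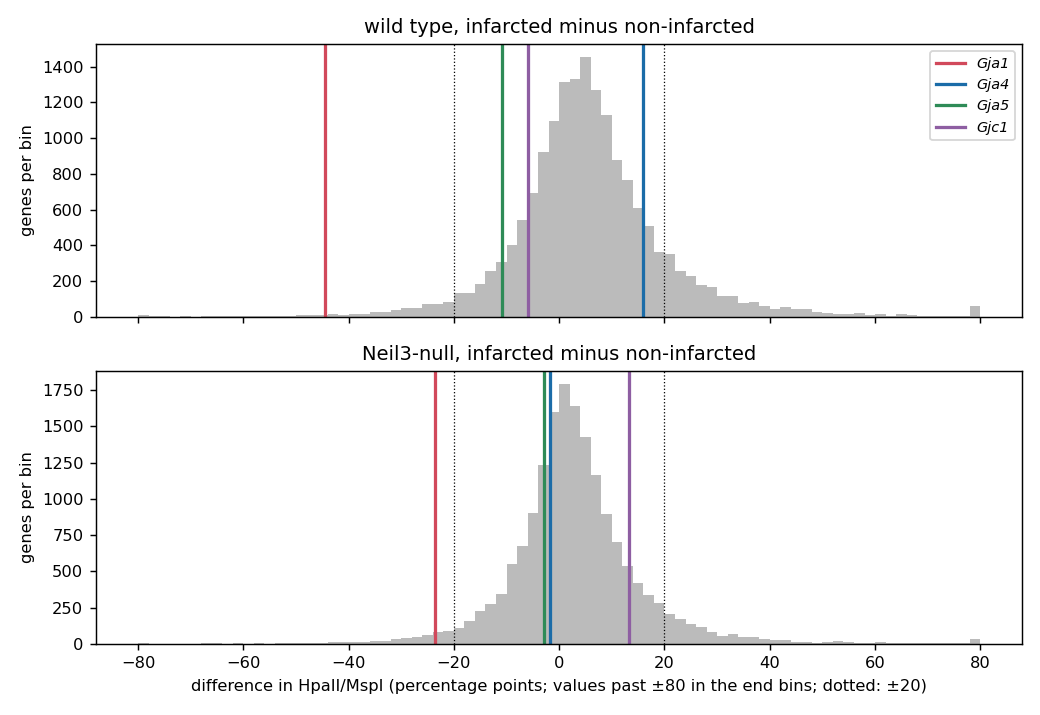
Histograms of the difference in HpaII/MspI, infarcted minus non-infarcted, in percentage points over 16883 genes, for wild type (top) and Neil3-null (bottom), with each connexin as a coloured line and dotted lines at 20 points either way. Gja1 lies at -44.5 and -23.6, and the other 3 genes lie inside the dotted lines.

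Between genotypes, Gja1 HpaII/MspI was 9.18 points higher in Neil3-null than in wild-type non-infarcted tissue. Without the flanks this difference was -6.97, and 9 of its 14 sites were lower. In infarcted tissue it was 30.1 points higher, at percentile 98.5 of genes, against a median gene difference of 0.477 points. Genes at least 20 points lower and higher made up 3.71% and 4.55% in non-infarcted tissue, where 0 connexins passed in either direction. They made up 6.15% and 4.42% in infarcted tissue, where 0 connexins were lower and 1, Gja1, was higher. Gja4, Gja5 and Gjc1 differed by 7.02, 3.56 and -7.70 points in non-infarcted and by -10.7, 11.6 and 11.5 points in infarcted tissue. The infarct and genotype comparisons share samples, so the wild-type infarcted value of Gja1 enters both its low infarct difference and its high genotype difference.

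The Gja1 difference in wild type came with a smaller HpaII signal and a larger share of MspI signal. Summed over its 14 sites, HpaII was 1001 and 721 in non-infarcted and infarcted wild-type tissue and 1042 and 966 in the matching Neil3-null tissue. MspI was 542, 514, 537 and 567. The wild-type infarcted libraries were smaller than the rest, so shares of each library were compared too. The Gja1 share of the HpaII library differed by -15.3% between infarcted and non-infarcted wild-type tissue (percentile 1.77 of genes), and its share of the MspI library by 16.1% (percentile 95.4). In Neil3-null tissue the HpaII share differed by -8.97% (percentile 5.35) and the MspI share by 5.33% (percentile 81.4).

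At 13 of the 14 Gja1 sites HpaII/MspI was lower in infarcted wild-type tissue, and at 11 of 14 in infarcted Neil3-null tissue. The median log2 change over the 14 sites was -0.57 in wild type and -0.12 in Neil3-null tissue, where several of the lower sites changed little. Among 13924 genes with at least 10 shared sites, 1 other gene, Tmed1 (10 of 10), had as large a share of lower sites in wild type. In Neil3-null tissue 134 genes (0.962%), Gja1 included, had at least its share of lower sites. The sites share 1 gene and are not replicates of a condition.

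The HpaII signal of Gja1 was highest near its start and declined along the gene. At the site at -477 bases from the start it was 159 and 104 in non-infarcted and infarcted wild-type tissue and 148 and 148 in the matching Neil3-null tissue. At 1905 bases inside the gene it was 147, 131, 151 and 148. At the most distant site, 14311 bases from the start and past the gene end, it was 17.9, 9.82, 24.5 and 16.7. The MspI signal did not follow this course: upstream of the start it was 141, 127, 140 and 143, and at 1905 bases only 13.5, 19.9, 16.4 and 17.3. The HpaII/MspI ratio was therefore set by both libraries, from 113%, 82.2%, 106% and 103% upstream to 1084%, 659%, 921% and 853% at 1905 bases.

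**Figure D3:**
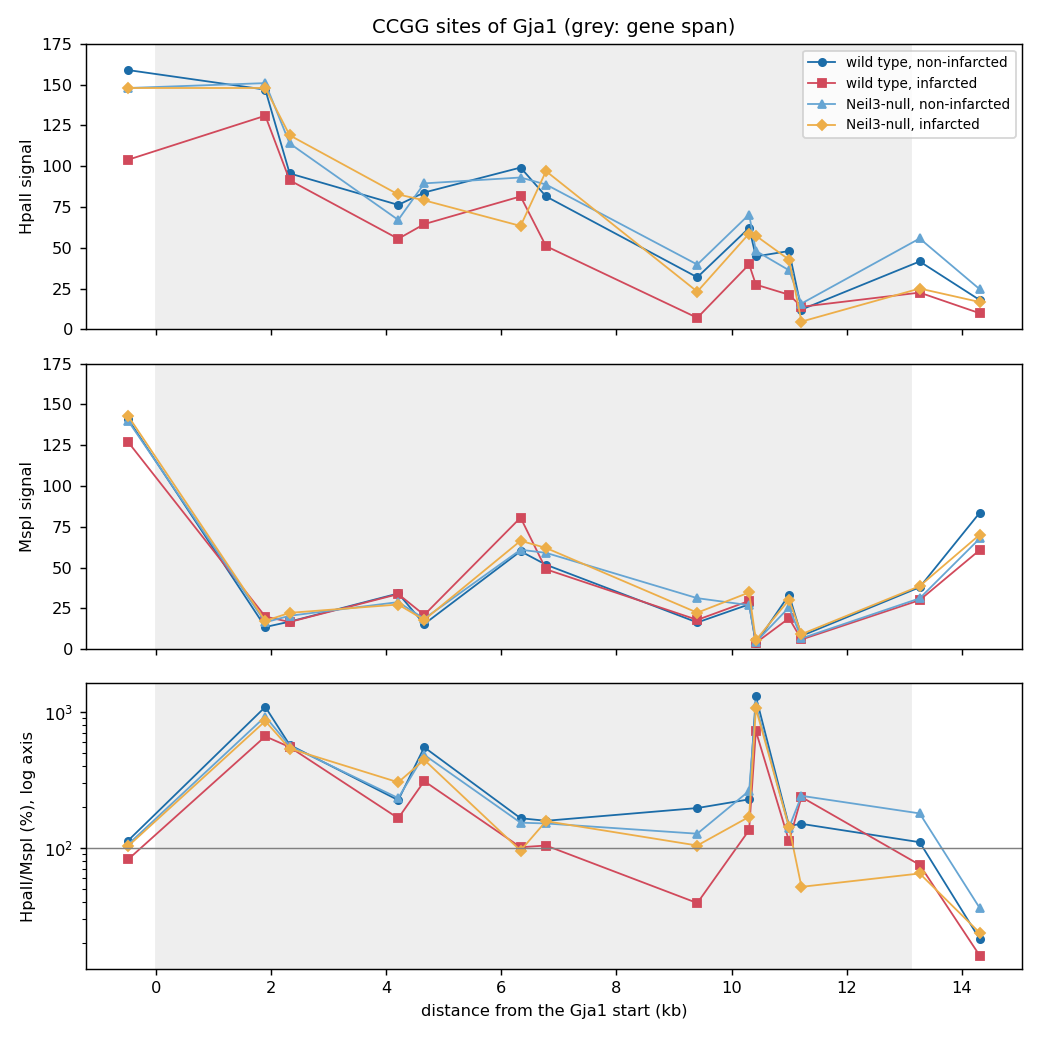
HpaII signal, MspI signal and HpaII/MspI (log axis, grey line at 100%) at the 14 Gja1 sites against distance from the start in kb, 1 line per sample, with the gene span in grey. The wild-type infarcted line lies lowest at 12 of the 14 sites for HpaII, down to 7.02 for HpaII at 9405 bases.

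The Gja1 site with the largest log2 change in wild type lay at 9405 bases. HpaII there was 31.9 and 7.02 in non-infarcted and infarcted wild-type tissue and 39.7 and 23.1 in the matching Neil3-null tissue. The log2 change of HpaII/MspI with infarction was -2.32 in wild type and -0.30 in Neil3-null tissue. In Neil3-null tissue the largest was -2.22, at 11214 bases, where HpaII was low in every sample at 12.1, 13.8, 15.8 and 4.72 and the wild-type change was 0.65. Over the 11 sites inside the gene the ratio was 280%, 197%, 273% and 246%, and over the 3 flanking sites 83.4%, 62.7%, 95.4% and 75.4%. The summed ratio was thus lower in infarcted tissue both inside Gja1 and in its flanks, in both genotypes. In Neil3-null tissue the flank difference lay mostly at 1 site, at 13266 bases, with 179% in non-infarcted and 64.8% in infarcted tissue. The other flanking sites had 106% and 103% at -477 bases, and 36.0% and 23.7% at 14311 bases.

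Capping each site at 100% left -7.77 and -7.16 points for Gja1 in wild type and Neil3-null, below the 20-point size. Leaving out 1 site at a time gave -57.7 to -39.7 in wild type and -31.9 to -16.8 in Neil3-null tissue.

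In Gja5, the gene of the conduction and arterial connexin, a short stretch inside the gene had lower values with infarction in both genotypes. A run of 4 neighbouring sites, chr3:97041446-97042347, had HpaII sums of 111 and 43.7 in non-infarcted and infarcted wild-type tissue and 113 and 73.3 in the matching Neil3-null tissue. HpaII/MspI over this run was 62.8%, 24.1%, 67.4% and 38.4%, a difference with infarction of -38.7 points in wild type and -29.0 points in Neil3-null tissue. The other 14 sites had 137%, 136%, 140% and 145%, differing by -0.382 and 5.16 points. Of these 14 sites, 8 were lower with infarction in wild type and 6 in Neil3-null tissue. Without chr3:97050783 the wild-type difference of the other sites was -8.29 points, and without chr3:97051494 it was 7.14. The run was singled out after its values were seen. At its first site, chr3:97041446, HpaII in wild-type infarcted tissue was 3.59, and the lowest value of that library was 3.16.

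Runs of 4 neighbouring sites within 1 kb were then scanned in the same way. Of 44617 such runs on autosomes, 4.66% were at least 20 points lower with infarction in both genotypes. The 4 connexin genes held 7 runs, some of them sharing sites, and 2 of the 7 were past that size: the Gja5 run and the run chr10:56387604-56388513 inside Gja1, at -55.6 and -63.2 points. The 4 Gja4 runs and the Gjc1 run were not. The Gja5 run was picked on its values before the scan, and the genes were chosen on these same ratios. Nothing is therefore read from 2 of 7 against the share of all runs. In the Gja1 run the log2 changes of the 4 sites were -0.75, -0.84, -0.37 and 0.65 in wild type. In Neil3-null tissue they were -0.63, -0.08, 0.01 and -2.22. HpaII at these sites was 70.4, 48.1, 36.2 and 15.8 in non-infarcted and 58.7, 57.4, 42.7 and 4.72 in infarcted Neil3-null tissue. MspI was 26.9, 4.30, 25.6 and 6.55 in the first and 34.7, 5.43, 30.2 and 9.13 in the second.

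Of the 64 sites, 2 were at least 2-fold lower with infarction in both genotypes, both of them in the Gja5 run; 0.883% of autosomal sites were that much lower in both. At chr3:97041673 HpaII was 43.0 and 20.2 in non-infarcted and infarcted wild-type tissue and 43.5 and 23.1 in the matching Neil3-null tissue, with MspI between 94.0 and 107. The log2 changes of the ratio were -1.25 and -1.02. At chr3:97041712 HpaII was 40.7, 13.2, 44.0 and 31.6, and the log2 changes were -1.80 and -1.26. MspI there was low, at 10.7, 12.1, 8.50 and 14.7. It was higher in the infarcted sample of each genotype, so both libraries entered these changes. The 2 sites are close neighbours and are not separate observations. At both sites each infarcted sample lay below both non-infarcted samples. The share of all sites that separate in this way is not given here. BGT/MspI at chr3:97041673 was 54.8%, 72.0%, 60.8% and 66.3%, higher in the infarcted samples. At chr3:97041712 it was 229%, 209%, 245% and 166%, lower in them.

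The promoter site of Gja5, in the window printed above, had the highest HpaII signal of the gene in 3 of the 4 samples. HpaII there was 166 and 148 in non-infarcted and infarcted wild-type tissue and 136 and 180 in the matching Neil3-null tissue, and the groups overlapped. MspI was 39.3, 46.4, 53.1 and 52.1, so HpaII/MspI was 422%, 318%, 256% and 345%. BGT/MspI at this site was 307%, 178%, 191% and 126%. Of the 18 Gja5 sites, 5 also lie inside the lncRNA 4930573H18Rik, and at those the 2 genes cannot be told apart.

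**Figure D4:**
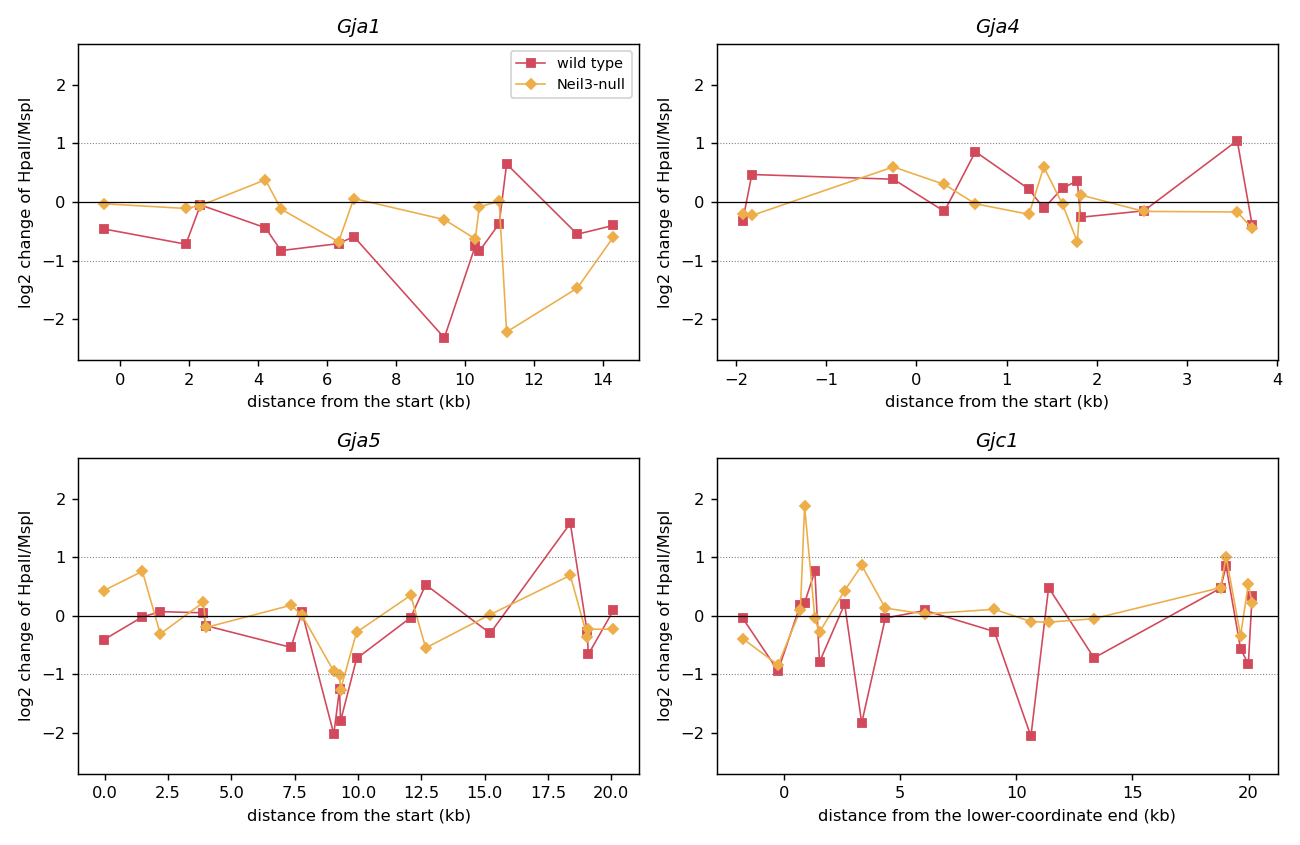
Log2 change of HpaII/MspI with infarction at each site against distance along each gene in kb, for wild type and Neil3-null, with dotted lines at a 2-fold change. The dip inside Gja5 reaches -2.02 in wild type, at a site where infarcted HpaII is 3.59, near the lowest value of that library. Most Gja1 points lie below 0.

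Gja4, the gene of the endothelial connexin, had its highest HpaII/MspI near the start. At the 3 sites within 1 kb it was 474% and 563% in non-infarcted and infarcted wild-type tissue and 458% and 586% in the matching Neil3-null tissue. Both infarcted samples were above both non-infarcted ones at these sites, as they were over all autosomal sites within 1 kb of a gene start. At its other 10 sites the ratio was 94.6%, 100%, 98.6% and 87.6%. All 61915 autosomal sites within 1 kb of a gene start had 192%, 199%, 192% and 196%, against 94.4%, 98.0%, 97.8% and 99.2% farther away. Mean MspI per site was low at the 3 Gja4 sites, at 18.3, 15.8, 21.1 and 19.1. For all sites near a start it was 47.5, 40.5, 46.1 and 47.2. Mean HpaII per site was 86.7, 89.1, 96.8 and 112 at the 3 Gja4 sites, against 91.0, 80.7, 88.5 and 92.5. BGT/MspI at the 3 Gja4 sites was 257%, 181%, 169% and 166%, against 138%, 118%, 127% and 122% for all sites near a start. At the site at -256 bases from the Gja4 start HpaII was 116, 125, 136 and 170.

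Gjc1, the nodal connexin, differed in opposite directions in the 2 genotypes, -5.95 points in wild type and 13.2 in Neil3-null tissue. The sign depended on the setting: the wild-type value was 2.62 as a median of sites and up to 2.49 with 1 site left out, and the Neil3-null value was -0.474 with sites capped at 100%. Its strand is not in the tables used; within 1 kb of its upper-coordinate end 3 sites had HpaII/MspI of 185% and 153% in non-infarcted and infarcted wild-type tissue and 172% and 194% in the matching Neil3-null tissue. Its other 16 sites had 131%, 134%, 125% and 135%. The largest single ratio of any of the 64 sites was at chr11:102810105, with 3204% in wild-type non-infarcted tissue on an MspI signal of 1.97, and 767%, 781% and 730% in the other samples. A further 2 Gjc1 sites were not in every file and were left out: chr11:102802472 was listed only in the 2 non-infarcted samples, and chr11:102814087 in all but Neil3-null infarcted tissue.

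Counted site by site, few of the 64 connexin sites differed 2-fold. With infarction in wild type 6 of 64 were at least 2-fold lower and 2 higher, where 7.92% and 8.23% of autosomal sites passed. In Neil3-null tissue 4 were lower and 2 higher, against 6.22% and 6.91%. Between genotypes in non-infarcted tissue 3 were lower and 1 higher, against 6.45% and 6.26%. In infarcted tissue 1 was lower and 1 higher, against 7.27% and 7.57%. The lower counts with infarction lie near their background shares in both genotypes, and none of these counts was tested.

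**Figure D5:**
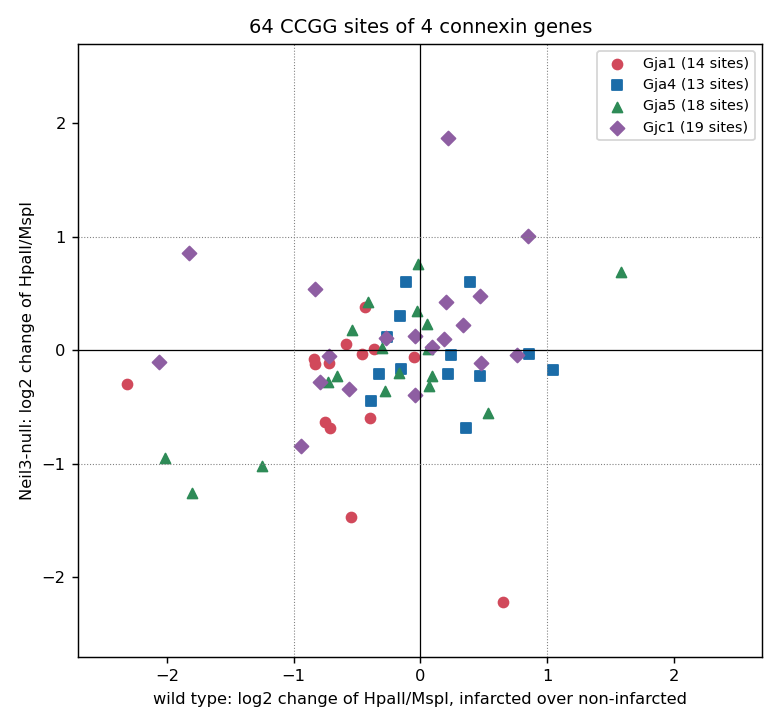
Log2 change of HpaII/MspI with infarction at each of the 64 sites, wild type on the x axis and Neil3-null on the y axis, with dotted lines at a 2-fold change. The 2 sites past the dotted lines in the lower left are those of Gja5.

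Across the 64 sites the infarct changes of the 2 genotypes correlated at Pearson r = 0.251 and Spearman rho = 0.295, and 37 (57.8%) had the same sign. Over all autosomal sites the values were 0.0648 and 0.0751, and 52.9% had the same sign. Sites of a gene share their libraries and their neighbourhood, so this is a description.

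BGT/MspI, which goes down with 5hmC, differed most at Gja1. Gja1 had 125% and 102% in non-infarcted and infarcted wild-type tissue and 104% and 105% in the matching Neil3-null tissue. The wild-type non-infarcted value stood apart from the other 3. That sample's BGT library also stood apart over all sites: its log2 signal correlated with MspI at r = 0.534, against 0.698 to 0.725 in the others. Its part in the Gja1 value was not tested.

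The Gja1 BGT/MspI differences that passed 20 points both involve that sample. With infarction in wild type the difference was -23.1 points, and 16.9% of genes were lower by at least 20 points. Between genotypes in non-infarcted tissue it was -21.1 points, and 11.9% of genes were that much lower. In Neil3-null infarction and in the infarcted genotype comparison it differed by 1.11 and 3.09 points. The median gene differed by -3.34 and -1.97 points in the first 2 comparisons; relative to it the Gja1 values were -19.8 and -19.2 points, under the 20-point size.

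Gja4 had BGT/MspI of 99.2%, 116%, 104% and 110%, Gja5 of 96.7%, 101%, 103% and 93.0%, and Gjc1 of 96.4%, 91.1%, 86.0% and 89.2%. Gjc1 was the lowest of the 4 genes in every sample. By site, 9 of 64 had BGT/MspI at least 2-fold lower in Neil3-null than in wild-type non-infarcted tissue, against 7.05% of all sites. Of the 9, 6 lay in Gjc1. Another 2 were at least 2-fold higher, against 6.76%. This comparison uses the wild-type non-infarcted BGT library that stands apart. Gjc1 had 3 sites with MspI below 10 in that sample, at 9.04, 1.97 and 7.80, all among those 6. With infarction in wild type 5 were lower and 3 higher, against 8.57% and 6.72%. In Neil3-null tissue they were 2 and 1, against 3.41% and 3.01%. Between infarcted genotypes they were 2 and 3, against 3.57% and 4.27%.

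The sites nearest the 2 kb boundary are given for Gja1, at both ends. For Gja1 the last site inside, past the gene end, had HpaII/MspI of 21.3%, 16.1%, 36.0% and 23.7%. The first site beyond the boundary at that end had 9.27%, 14.0%, 14.3% and 37.5%, higher in the infarcted sample of each genotype. Before the gene start, the first site inside had 113%, 82.2%, 106% and 103%. The first site beyond the boundary there had 144%, 63.8%, 130% and 126%, lower in the infarcted sample of each genotype, though by little in Neil3-null tissue.

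The genes nearest to each connexin in HpaII/MspI over the 4 samples, by Euclidean distance of log2 values among 13924 genes, were farther away for Gja1 than for the other 3. For Gja1 they were Taco1 at 0.112, Acadvl at 0.126 and Il19 at 0.148. For Gja4 they were Rcbtb2 at 0.0187, Cd80 and Cyld, for Gja5 Cyb5b at 0.0382, Tiprl and Bdh1, and for Gjc1 Pmp22 at 0.0440, Npas1 and Fndc5.

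Of 16 further connexin genes 11 had at least 5 shared sites. With infarction 0 of these 11 were at least 20 points lower in HpaII/MspI in either genotype, where 3.28% and 2.82% of all genes were. In wild type 1, Gjd2, was higher, at 25.8 points, against 12.1% of genes. Their median difference was 5.31 points in wild type and 9.46 in Neil3-null tissue, where the highest was Gjb2 at 37.7 points. Gjb5 was 29.8 points higher there. Of these 11 genes, 3 were at least 20 points higher in Neil3-null tissue, against 6.82% of all genes. In wild type Gjb5 had the lowest difference, at -13.1 points, and Gjb2 was named after its values were seen. BGT/MspI was at least 20 points lower at 5 of these 11 genes with infarction in wild type, against 16.9% of all genes, and at 0 of 11 in Neil3-null tissue. The wild-type comparison uses the non-infarcted BGT library that stands apart. For HpaII/MspI 0 of 3 pannexins, related channel proteins, passed 20 points in either genotype; with infarction in wild type Panx1 differed by 12.0, Panx2 by 7.12 and Panx3 by -1.60 points.

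Genes of connexin partners and of connexin regulation were mixed. Over all genes 3.28% were at least 20 points lower with infarction in wild type and 12.1% higher. In Neil3-null tissue the shares were 2.82% and 6.82%. Of 20 partner and trafficking genes, 1 was lower in wild type, the caveolin gene Cav1 at -30.9 points, and 0 were higher. Cav3 differed by -13.6, Ezr by 10.4 and Dbn1 by 9.46 points. Of 18 regulators, 2 were lower, Irx3 at -28.6 and Gata6 at -26.7 points. Another 6 were higher, led by the repressor genes Tbx2 at 60.0 and Tbx18 at 42.5 points. The regulators had high ratios, with a median of 182% and 196% in non-infarcted and infarcted wild-type tissue. The median gene had 114% and 119%, so 20 points is a smaller relative change for the regulators, and their counts are not set against the shares of all genes. In Neil3-null tissue 0 partners passed 20 points, and 1 regulator was lower, Gata6, and 1 higher, Hand2, which was named after its values were seen. Gata6 differed by -24.0, Tbx2 by 8.51 and Tbx18 by 0.422 points.

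In bulk tissue a change in the mix of cells and a change of modification within a cell cannot be told apart. Of 20 cardiomyocyte marker genes 17 were below the median gene difference with infarction in wild type and 15 in Neil3-null tissue, with median differences of -10.9 and -5.60 points. Of 17 leukocyte markers 4 and 7 were below it, with medians of 10.3 and 4.58 points. Of 20 endothelial markers 17 were below it in each genotype, with medians of -5.32 and -1.21 points. Of 14 fibroblast markers 6 and 4 were below, and of 12 smooth muscle and pericyte markers 8 and 6. Over the cardiomyocyte markers the wild-type differences ran from -31.0 to 105 points. Gja1 differed in the direction of their median, and their part in its difference was not tested.

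Library totals of summed signal ran from 34161766 to 43985354, and the wild-type infarcted sample had the smallest totals. The signal carries no read counts, so the depth behind a site is unknown. Of 20 listed sites within Neil3, 1 was present in both wild-type samples and in neither Neil3-null sample, as were 0.748% of autosomal sites listed in both wild-type samples. MspI over the 12 Neil3 sites found in all samples was 609, 492, 571 and 646. DNA signal gives no transcript level, so the tissue label was not checked against expressed markers.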

How the data were processed

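Left-ventricular DNA of 4 samples, 1 per group, was profiled by HMST-seq with 3 libraries each. For every CCGG site the authors deposited 1 normalized signal value per library; the submitters' processing notes name mm10 as the build of the positions. Aligner, normalization, filters and pooling: not given in the sources used here. Gene spans and promoters came from RefSeq tables of GRCm38.p6. Signal was summed over sites listed in all 4 files, from 2 kb before to 2 kb after each gene, and HpaII/MspI and BGT/MspI were taken as percentages of the sums. A gene was called at 20 percentage points and a site at 2-fold; the background was 16883 genes with at least 5 shared sites, or 967498 autosomal sites. No test was made, with 1 sample per group and members chosen on these values. The genes, lists and comparisons were chosen with earlier results of these data known. Named genes were the 4 connexins, the 2 largest rises and falls per list in wild type, and the 3 nearest genes with at least 10 shared sites; sites named singly lay in a promoter, passed 2-fold in both genotypes, or were chosen after their values were seen, as were the runs of sites. Of the genes that this rule picks, 2 are not reported here; Gjb2, Hand2 and Tmed1 lie outside it. The summing was tested on simulated data. Python 3.11.15, numpy 2.4.6, pandas 2.3.3 and matplotlib 3.10.9 were used.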

Additional observations from a re-analysis of the deposited data

Results flagged for a closer look

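Infarct differences of opposite sign in the 2 genotypes were seen for 5 connexin ratios, and with 1 sample per group none of these differences was tested. Gja4 HpaII/MspI differed by 15.9 points in wild type and -1.81 points in Neil3-null tissue, so that Neil3-null minus wild type was -17.8. Gjc1 HpaII/MspI differed by -5.95 and 13.2 points, a gap of 19.2. Gja1 BGT/MspI differed by -23.1 and 1.11 points, a gap of 24.2. Gja5 BGT/MspI differed by 4.60 and -10.1 points, a gap of -14.7. Gjc1 BGT/MspI differed by -5.27 and 3.22 points, a gap of 8.49. All 3 BGT/MspI values use the wild-type non-infarcted BGT library that stands apart. The opposite signs depended on the setting for each of the 5: Gja4 HpaII/MspI reached 6.35 in Neil3-null tissue with 1 site left out and -0.618 in wild type with capped sites, and Gjc1 HpaII/MspI reached 2.62 in wild type as a median of sites. Gja1 BGT/MspI in wild type was 1.04 with capped sites, Gja5 BGT/MspI in wild type was -18.6 as a median of sites, and Gjc1 BGT/MspI in Neil3-null tissue was -1.88 at a signal of at least 20. The median gene had a gap of -2.60 for HpaII/MspI and 3.71 for BGT/MspI.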

How the results depend on the processing

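Gja1 HpaII/MspI kept its sign in 12 of 12 alternatives in both infarct comparisons and between genotypes in infarcted tissue, but its size depended on the summary. With per-site ratios capped at 100% it was -7.77 in wild type, -7.16 in Neil3-null tissue and 1.66 between genotypes in infarcted tissue; leaving out 1 site brought the Neil3-null value to -16.8 at most. With the median of per-site ratios, Gja4 was 26.1 and Gja5 -37.6 in wild type, Gja5 -23.6 and Gjc1 28.0 in Neil3-null tissue, Gja1 25.3 between genotypes in non-infarcted and Gja4 -26.8 in infarcted tissue. Gja4 in wild type was 22.2 without the site of largest MspI and up to 23.8 with 1 site left out. Gja1 BGT/MspI turned to 1.04 (wild-type infarction) and 4.33 (genotype, non-infarcted) with capped ratios. The cause of these changes was not tested.

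Mean levels over the 4 samples moved as follows. Gja1, 172%, was 249% without flanks, 91.2% capped and 197% without the site of largest MspI. Gja4, 133%, was 116% with 5 kb flanks, 125% as a median of sites, 87.7% capped and 151% without the site of largest MspI. Gja5, 121%, was 110% at a signal of at least 20, 109% without flanks, 108% with 5 kb flanks, 152% as a median and 78.0% capped. Gjc1, 144%, was 138% at a signal of at least 10, 119% at 20, 152% without flanks, 138% with libraries rescaled, 85.0% capped and 164% without the site of largest MspI. Levels relative to the median gene were not run. At 1.5-fold, 18 sites were lower and 6 higher in wild type (18.5% and 19.1% of all sites), 10 and 7 in Neil3-null tissue (15.6% and 16.7%), 10 and 7 between genotypes in non-infarcted (16.1% and 15.7%) and 6 and 12 in infarcted tissue (17.4% and 17.7%). At a signal of at least 10, 0 sites were lower between genotypes in infarcted tissue, and rescaled libraries gave 1 higher site in each infarct comparison. No paired analysis was made: the labels give no replicate numbers and do not say which samples share animals. Capping, medians and leaving sites out were applied to the same 4 samples, so no setting adds a replicate.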
